A study of Homo sapiens with 9 samples.

Results

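Human mitochondrial DNA encodes subunits of respiratory chain complexes, and the 10 genes described here are those of complex I and complex IV, namely MT-ND1, MT-ND2, MT-ND3, MT-ND4, MT-ND4L, MT-ND5 and MT-ND6 (7 genes, complex I) and MT-CO1, MT-CO2 and MT-CO3 (3 genes, complex IV). They were found by matching the Ensembl IDs of the count table, version removed, to GENCODE symbols. The rule that names them uses no measured value, although it was set with earlier results of these data known. All 10 were found among the 57163 genes of the table, which holds 13 genes of the mitochondrial genome, all protein-coding, and all 10 were far above any minimum level in all 9 libraries.

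The 9 RNA-seq libraries were made 48 h after transfection of 293T, a transformed cell line derived from human embryonic kidney. Each of 8 libraries came from cells given a lentiviral expression plasmid (pLV[Exp]-EGFP-EF1A) with the human open reading frame of 1 TF. These were the CLB_TFs, chosen as TFs that bind preferentially at conserved lncRNA genes (NRF1, E2F4, EGR1 and ZBTB7A), and control TFs chosen as lacking that preference (HOXA11, RORA, TFCP2 and NKX2-8). The remaining library is the control, labelled as a blank and described elsewhere as an empty plasmid. There was 1 library per condition in transiently transfected cells of 1 line, so a TF library set against the control library compares those libraries, with no replicate check, and intervals given below cover counting error only. In bulk RNA, more mitochondria per cell and more RNA per mitochondrion cannot be told apart.

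Libraries held 14177970 to 18915400 counts. Each inserted TF was highest in its own library, 28.4 to 895 times the next-highest library. The control library also held 9812 TFCP2 counts, against 653 to 703 in the 7 libraries given other TFs, so it stood apart in that gene, and sums are also given below against the control TF libraries. Some TF libraries were also raised in a TF other than their own. E2F4 held 1436 ZBTB7A counts (560 in control), ZBTB7A held 1904 HOXA11 counts (1241 in control) and HOXA11 held 1097 RORA counts (273 in control). The source of these counts was not tested. All 8 of the 293T line markers listed averaged at least 1 CPM (PAX2, LHX1, NEFM, NEFL, VIM, KRT8, KRT18, CDH2), whereas 1 of 7 leukocyte, 2 of 7 fibroblast and 1 of 7 muscle and heart markers did.

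Complex I (NADH dehydrogenase) takes electrons from NADH and passes them to ubiquinone, and complex IV (cytochrome c oxidase) takes them from cytochrome c and reduces oxygen, and both pump protons. Their core membrane subunits are translated inside mitochondria, while most of their subunits are encoded in the nucleus and imported. Mitochondrial DNA is transcribed by the RNA polymerase POLRMT with the factors TFAM and TFB2M into long transcripts of both strands, from which tRNAs are cut out, releasing mRNAs that mostly begin and end directly at a tRNA.

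The 3′ ends of the genes show this packing, and they are printed to show how closely the genes are packed and which of them end without a full stop codon. Each line gives the last 24 bases of a gene on its coding strand, 5′ to 3′, from GRCh37 (chromosome M), with the letters of the last complete or incomplete codon in capitals.
MT-ND1: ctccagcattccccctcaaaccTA
MT-ND2: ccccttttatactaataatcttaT
MT-ND3: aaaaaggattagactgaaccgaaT
MT-ND4: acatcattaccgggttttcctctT
MT-ND4L: aacctaaacctactccaatgcTAA
MT-ND5: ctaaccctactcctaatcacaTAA
MT-ND6: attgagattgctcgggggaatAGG
MT-CO1: gaacccgtatacataaaatctAGA
MT-CO2: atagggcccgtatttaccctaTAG
MT-CO3: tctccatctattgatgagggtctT
MT-ND1 stops after TA and MT-ND2, MT-ND3, MT-ND4 and MT-CO3 after T, an incomplete stop codon that the poly(A) tail completes in the mRNA. MT-ND4L, MT-ND5 and MT-CO2 carry a full TAA or TAG. MT-CO1 ends in AGA and MT-ND6 in AGG, which the mitochondrial code does not read as arginine. MT-ND1, MT-ND2, MT-ND3, MT-ND4 and MT-CO3 have 0 bases between their last letter and the next tRNA gene, while MT-CO2 has 25. MT-ND6 is the only member on the light strand, and its 3′ end abuts the 3′ end of MT-ND5 on the other strand, with 0 bases between them.

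MT-ND4L and MT-ND4 are read from 1 shared mRNA, and their reading frames overlap. The window is printed because reads over it belong to both genes and a counter may leave them out. It lies at chrM:10750-10776 on the + strand of GRCh37, with the 7 shared bases in capitals, in which the start codon of MT-ND4 precedes the stop codon of MT-ND4L in another frame.
MT-ND4L and MT-ND4: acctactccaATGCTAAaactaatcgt
Coverage per length reflected the pair unequally. Per kb, the level of MT-ND4L (297 bases) was 0.633 to 0.705 of that of MT-ND4 (1378 bases) in the 9 libraries, and MT-ATP8 (207 bases), which shares an mRNA and 46 bases with MT-ATP6 (681 bases), had 0.262 to 0.328 of its level, so per-kb levels of the short genes carry a difference within 1 mRNA whose source was not tested.

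Nuclear copies of mitochondrial DNA bear on which reads can be placed. The authors counted uniquely mapped reads, and a read that fits a nuclear copy equally well is lost. The best nuclear match of MT-CO1 lay at chr1:566454-567996 (98.6% identical over the whole gene, longest identical run 245 bases), that of MT-ND2 at chr1:565020-566061 (98.4%, run of 266 bases), that of MT-CO2 at chr1:568137-568818 (98.0%, run of 108 bases), and those of MT-CO3 and MT-ND1 covered 70.0% and 36.8% of the gene at 98.2% and 99.1%. MT-ND4, MT-ND4L, MT-ND5 and MT-ND6 matched chromosome 5 at 93.0% to 95.8%, with no identical run over 91 bases. MT-ND3 had the weakest match, 89.7% over 39.3% of the gene. Such losses act on the same stretches in every library, and their size was not tested. The lncRNA CATG00000042732.1, which lies over the chromosome 1 copy, had 136 to 194 counts, and MTRNR2L1, a nuclear gene related to mitochondrial rRNA, had 0 counts in all 9 libraries. In CPM scaled as described below, this lncRNA was, like the members, lowest in NRF1 (8.58) and highest in NKX2-8 (12.9), against 10.4 in control. Whether its reads came from mitochondrial RNA was not tested.

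Together the 10 genes took 3.17% of all counts in the NRF1 library, 3.89% in E2F4, 3.77% in EGR1, 3.92% in ZBTB7A, 4.18% in HOXA11, 3.93% in RORA, 3.68% in TFCP2 and 4.96% in NKX2-8, against 3.62% in the control library. Levels below are CPM (counts scaled by library size) after TMM scaling, which sets libraries on a common scale by genes that change little. Per kb of gene, MT-CO1, the catalytic subunit of complex IV that binds the heme groups, stood first with 10998 CPM per kb (range over the 9 libraries 8184 to 14150). MT-CO2, which receives electrons from cytochrome c, and MT-ND4, a proton-pumping subunit of complex I, followed with 5433 (4188 to 7040) and 5198 (3971 to 6221) CPM per kb. MT-CO3, a core subunit of complex IV without a redox centre, had 3803 (2733 to 5563) and MT-ND4L, a small membrane subunit, 3496 (2722 to 4079). MT-ND5, a proton-pumping subunit, had 2058 (1584 to 2455) and MT-ND1, which lies at the ubiquinone site, 1961 (1468 to 2586). The lowest were MT-ND3, a small membrane subunit, with 1423 (1014 to 2013), MT-ND2, a proton-pumping subunit, with 979 (722 to 1333), and MT-ND6, the light-strand gene, with 248 (208 to 364).

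The order was almost fixed across libraries. Of its 9 neighbouring pairs, 6 kept their order in 9 of 9 libraries, and MT-CO2 over MT-ND4, MT-CO3 over MT-ND4L and MT-ND5 over MT-ND1 kept it in 8 of 9, so these 3 pairs, which differed by 1.05 to 1.09 times in their means, are not separated beyond their spread. The steps with no overlap of ranges were MT-CO1 over MT-CO2 (1.81 to 2.25 times), MT-ND4L over MT-ND5 (1.65 to 1.76 times) and MT-ND2 over MT-ND6 (3.47 to 4.49 times). Within 1 library MT-CO1 alone gave 42.3% to 44.2% of the members' counts and MT-ND6 0.283% to 0.383%.

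**Figure D1:**
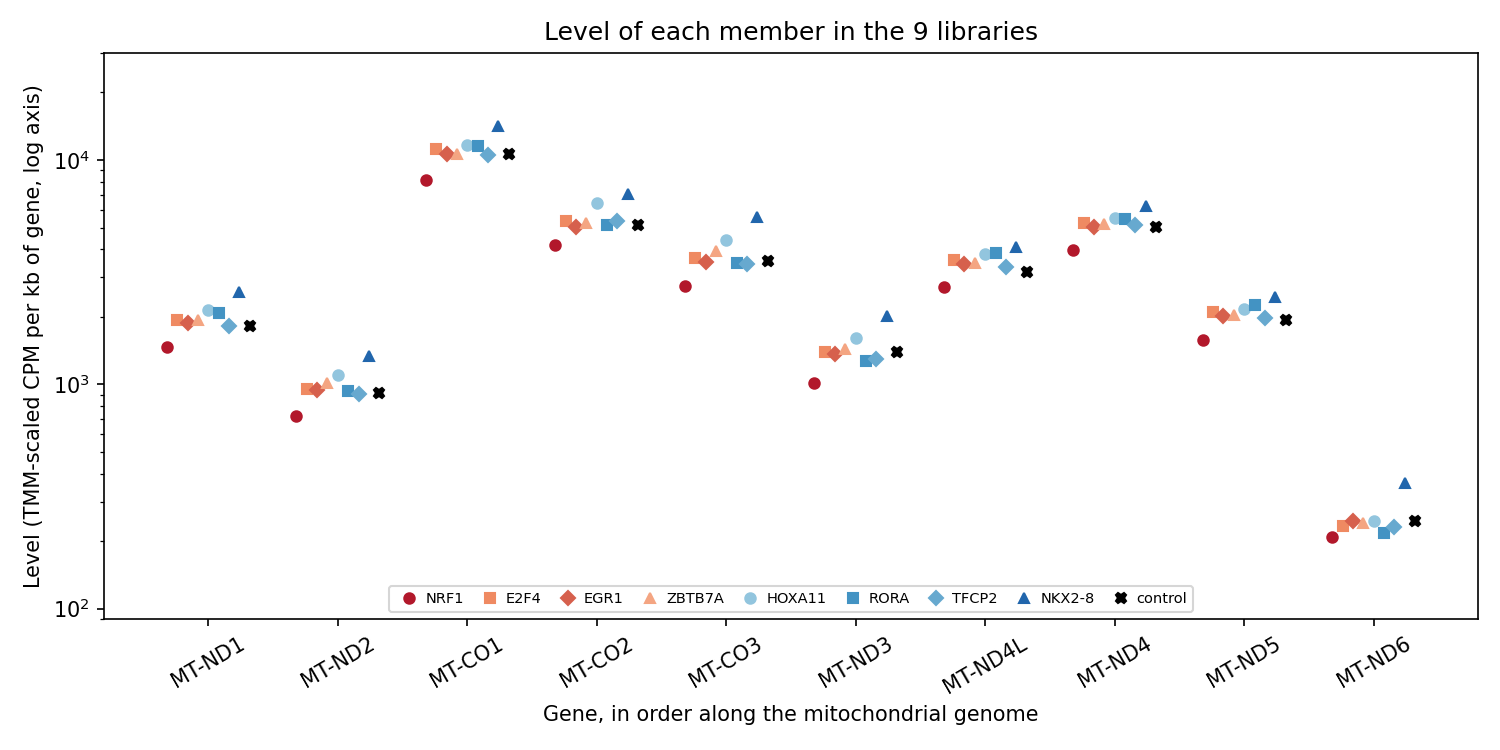
Level of each of the 10 genes in TMM-scaled CPM per kb of gene (log axis), in order along the mitochondrial genome, with 1 point per library (CLB_TFs in reds, control TFs in blues, control in black). MT-CO1 is highest and MT-ND6 lowest in all 9 libraries, and for every gene the NKX2-8 point is the highest and the NRF1 point the lowest. With plain library totals, which are not drawn, the lowest MT-ND6 value is in RORA.

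In the NKX2-8 library all 10 genes were higher than in the control library and higher than in any of the other 8 libraries. The summed level was 49980 CPM in the NKX2-8 library, against 37259 CPM in the control library, a ratio of 1.34 (1.34 to 1.35). For comparison, the NKX2-8 library was the highest for 15.9% of all genes with at least 1 CPM in a library, and for 17.1% of the 1938 genes at a mean of at least 100 CPM. The log2FC of the members over the control library was 0.31 to 0.65, and all 10 lay above the 90th percentile of genes at 100 CPM or more in either library, which was 0.14 (median -0.058). The placing of all 10 genes above all other libraries held with library totals, with DESeq2 size factors and with TMM computed without mitochondrial genes.

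MT-CO3 had the largest log2FC of the members. It had 4361 CPM in the NKX2-8 library, against 2143 in NRF1, 2873 in E2F4, 2747 in EGR1, 3072 in ZBTB7A, 3459 in HOXA11, 2712 in RORA, 2687 in TFCP2 and 2782 in the control library. The NKX2-8 value was 1.57 times the control value (1.55 to 1.59, from 65725 and 51164 counts), and 1.26 times the next-highest library, HOXA11.

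The other complex IV genes showed the same high library. MT-CO1 had 21820 CPM in NKX2-8, against 12619 in NRF1, 17184 in E2F4, 16358 in EGR1, 16385 in ZBTB7A, 17910 in HOXA11, 17860 in RORA, 16153 in TFCP2 and 16337 in control. Its ratio to control in NKX2-8 was 1.34 (1.33 to 1.34), and apart from NKX2-8 and NRF1 its values lay close together. MT-CO2 had 4816 CPM in NKX2-8, against 2865 in NRF1, 3673 in E2F4, 3451 in EGR1, 3572 in ZBTB7A, 4380 in HOXA11, 3518 in RORA, 3668 in TFCP2 and 3502 in control. For MT-CO2 the HOXA11 library was also raised, to 1.25 times control (1.24 to 1.26), so NKX2-8 exceeded the next library by only 1.10 times.

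Among the complex I genes, MT-ND6 was the one in which NKX2-8 stood farthest from the rest. MT-ND6 had 191 CPM in NKX2-8 (2883 counts), against 109 in NRF1, 122 in E2F4, 129 in EGR1, 127 in ZBTB7A, 129 in HOXA11, 114 in RORA, 121 in TFCP2 and 129 in control (2375 counts). The NKX2-8 value was 1.48 times the next-highest, and 1.48 times control (1.40 to 1.57), whereas the other 8 libraries spanned only 109 to 129 CPM. Reads of MT-ND5 and MT-ND6 come from opposite strands, and whether the counter used strand is unknown here, so reads of the opposite transcript over MT-ND6 cannot be told apart from its own.

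MT-ND1, MT-ND2 and MT-ND3 were between 1.43 and 1.46 times the control level in NKX2-8. MT-ND1 had 2473 CPM in NKX2-8, against 1404 in NRF1, 1858 in E2F4, 1790 in EGR1, 1846 in ZBTB7A, 2045 in HOXA11, 1987 in RORA, 1738 in TFCP2 and 1735 in control. MT-ND2 had 1389 CPM in NKX2-8, against 753 in NRF1, 988 in E2F4, 979 in EGR1, 1054 in ZBTB7A, 1150 in HOXA11, 974 in RORA, 944 in TFCP2 and 953 in control. In both genes HOXA11 came second and NRF1 last. MT-ND3 had 697 CPM in NKX2-8, against 351 in NRF1, 484 in E2F4, 473 in EGR1, 499 in ZBTB7A, 559 in HOXA11, 438 in RORA, 448 in TFCP2 and 484 in control, so for this gene RORA, TFCP2 and EGR1 lay below the control library as well as NRF1.

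The genes MT-ND4L, MT-ND4 and MT-ND5, which lie next to each other on the genome with only tRNA genes between MT-ND4 and MT-ND5, had the smallest excess in NKX2-8, 1.24 to 1.29 times control. MT-ND4 had 8573 CPM in NKX2-8, against 5472 in NRF1, 7225 in E2F4, 6914 in EGR1, 7119 in ZBTB7A, 7637 in HOXA11, 7514 in RORA, 7104 in TFCP2 and 6905 in control. MT-ND4L had 1211 CPM in NKX2-8, against 809 in NRF1, 1062 in E2F4, 1026 in EGR1, 1035 in ZBTB7A, 1131 in HOXA11, 1142 in RORA, 986 in TFCP2 and 942 in control. For MT-ND4L the RORA library came within 1.06 times of NKX2-8. MT-ND5 had 4449 CPM in NKX2-8, against 2869 in NRF1, 3794 in E2F4, 3650 in EGR1, 3702 in ZBTB7A, 3915 in HOXA11, 4112 in RORA, 3582 in TFCP2 and 3491 in control, again with RORA second.

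**Figure D2:**
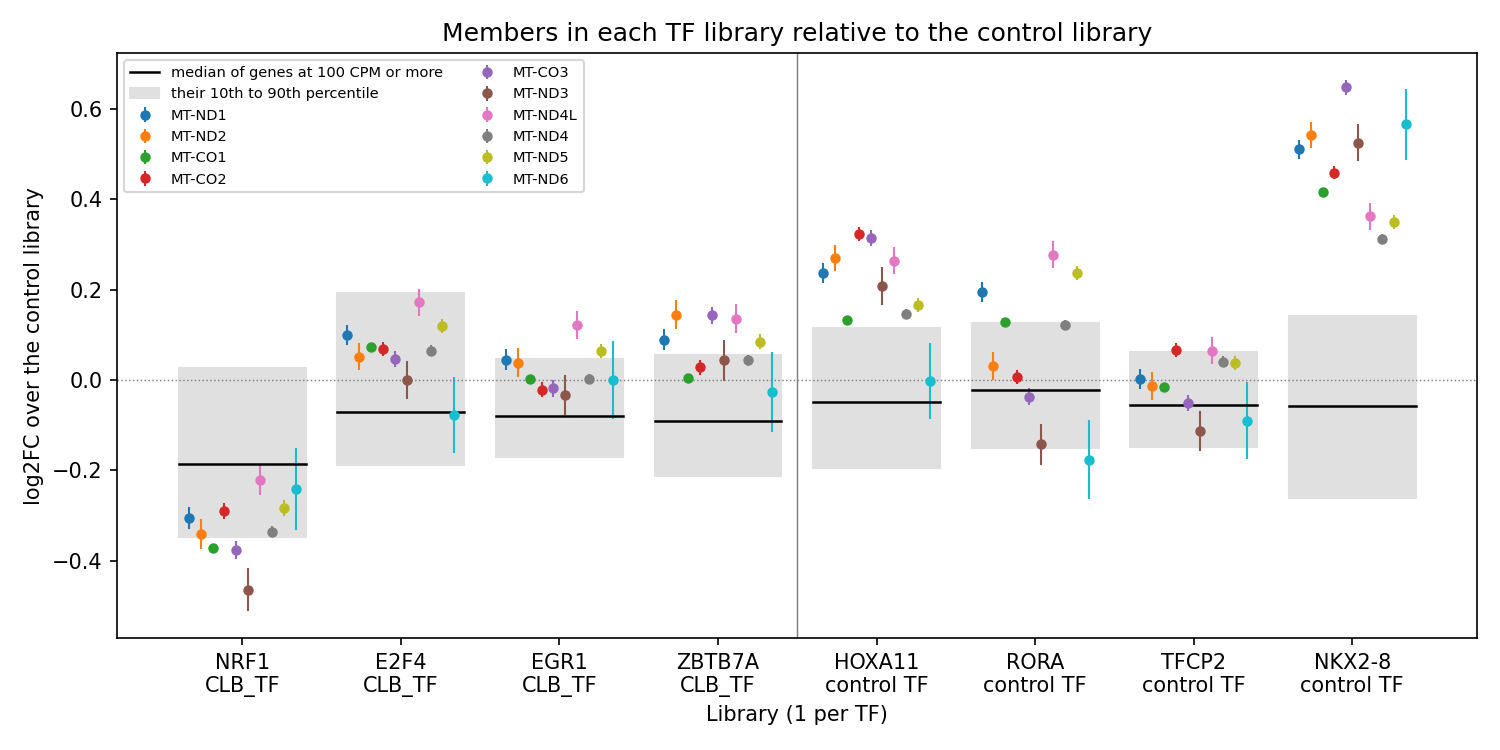
log2FC of each gene in each TF library over the control library, with counting-error bars at 95%. The grey band is the 10th to 90th percentile of genes at 100 CPM or more and the black line their median. In NKX2-8 all 10 genes lie above the band, as do 9 in HOXA11, 5 in ZBTB7A and 4 in RORA. In NRF1 all 10 lie below 0 with 3 below the band.

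The lowest levels were in the NRF1 library. NRF1 is a regulator of nuclear genes for the respiratory chain and of the mitochondrial transcription machinery, and its insert was present at 40632 counts. The summed level of the 10 genes was 29393 CPM in the NRF1 library, against 37259 CPM in the control library, a ratio of 0.789 (0.786 to 0.792). All 10 were below the control library, with log2FC of -0.46 (MT-ND3) to -0.22 (MT-ND4L), and all 10 were the lowest of the 9 libraries after TMM scaling. The share of genes lowest in NRF1 was 23.7% of all genes with at least 1 CPM in a library, but 55.8% of those at a mean of at least 100 CPM, whose median log2FC in this library was -0.19 (10th to 90th percentile -0.35 to 0.028). Only 3 of the 10 members lay below that 10th percentile. The TMM factor of the NRF1 library lowered all of its log2FC values by 0.15 relative to library totals. With library totals the members' log2 ratios were -0.31 to -0.071, 9 of 10 were lowest in NRF1 (MT-ND6 was lowest in RORA), and 20.7% of genes at a mean of 100 CPM were lowest in NRF1.

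In the other 6 libraries the summed level moved less than in NKX2-8 and NRF1 after TMM scaling. With library totals the log2 ratio of the sum was 0.21 in HOXA11 and -0.19 in NRF1. Not every gene moved less than in NRF1, since MT-CO2 had a log2FC of 0.32 in HOXA11 and -0.29 in NRF1. A place above the 90th percentile of genes at 100 CPM or more was not particular to NKX2-8. It was held by 9 of 10 members in HOXA11, 5 in ZBTB7A, 4 in RORA, 2 in EGR1, 2 in TFCP2 and 0 in E2F4. In HOXA11, 9 of 10 genes were above the control library, the exception being MT-ND6 (log2FC -0.0023), and the summed ratio was 1.14 (1.13 to 1.14). In RORA the summed ratio was 1.08 (1.08 to 1.09), but the genes divided, with MT-ND4L, MT-ND5 and MT-ND1 at log2FC of 0.28, 0.24 and 0.20 and MT-ND6, MT-ND3 and MT-CO3 at -0.18, -0.14 and -0.037. In E2F4, EGR1, ZBTB7A and TFCP2 the summed ratios were 1.05, 1.01, 1.03 and 1.005, and the largest log2FC of a single gene was 0.17 (MT-ND4L in E2F4). These small departures from 1 depend on the reference. Against the mean of the control TF libraries, leaving out the library itself where it is one of them, the log2 ratio of the sum was -0.12 in E2F4, -0.18 in EGR1, -0.15 in ZBTB7A, -0.0095 in HOXA11, -0.10 in RORA and -0.24 in TFCP2, so the direction turned round in all 6, while NRF1 (-0.53) and NKX2-8 (0.32) kept theirs. Except for NKX2-8 itself, that mean includes NKX2-8, whose sum was 49980 CPM. The sums of HOXA11, RORA and TFCP2 were 42315, 40371 and 37431 CPM. The HOXA11 sum was above those of both RORA and TFCP2, so without NKX2-8 HOXA11 would lie above its reference and not turn round. The TFCP2 sum was below those of both HOXA11 and RORA, so TFCP2 would still lie below its reference. For the remaining libraries a reference without NKX2-8 was not run.

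None of the 10 genes reached a 2-fold difference from the control library in any TF library. The same rule, 2-fold with at least 1 CPM in the higher library, called 8.47% of genes in NRF1, 3.95% in E2F4, 2.78% in EGR1, 2.36% in ZBTB7A, 1.51% in HOXA11, 0.915% in RORA, 0.676% in TFCP2 and 3.71% in NKX2-8. At 1.5-fold, 1 of 10 members (MT-CO3) was called in NKX2-8, beside 10.1% of all genes there.

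The members moved mostly together. After each gene's mean was removed, the shift common to all 10 genes of a library held 88.7% of the sum of squares over the 9 libraries, and 57.0% over the 7 libraries without NKX2-8 and NRF1, where no gene varied more than 1.29 times. Over all 9 libraries the highest level exceeded the lowest by 1.498 times for MT-ND4L to 2.04 times for MT-CO3. Pearson's r of log2 CPM over the 9 libraries, which share their scaling and rest mostly on NKX2-8 and NRF1, was 0.993 for MT-CO3 with MT-ND2 and 0.604 for MT-ND4L with MT-ND6, the highest and the lowest of the pairs.

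What was left after the common shift set some genes apart between the RORA and NKX2-8 libraries. MT-ND4L, MT-ND5 and MT-ND4 lay 0.14, 0.15 and 0.076 log2 units above their expected level in RORA and at -0.18, -0.14 and -0.14 in NKX2-8. MT-CO3, MT-ND3 and MT-ND6 did the opposite, at -0.11, -0.15 and -0.17 in RORA and 0.17, 0.12 and 0.16 in NKX2-8. These genes did not stay together in all libraries. MT-ND6 was at 0.15 in NRF1, where MT-CO3 and MT-ND3 were at -0.066 and -0.082. In HOXA11 MT-ND6 was at -0.14, and MT-CO3 and MT-ND3 at 0.096 and 0.062. Removing the library mean makes some genes positive and others negative in every library. Counting error was small beside this, at most 0.035 log2 units for MT-ND6 in the library with the fewest counts, and 0.02 or less for the others. Pearson's r of the difference between the NKX2-8 and RORA deviations was -0.27 with GC content, -0.50 with gene length, 0.076 with genome position and -0.053 with identity to the nuclear copy, over the 10 genes, as a description.

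The count ratio of MT-CO3 to MT-ND5, which needs no scaling between libraries, restates this contrast in raw counts. Neither it nor the ratio of MT-ND6 to MT-ND5 is separate support, since each pairs genes from opposite sides of the contrast. The count ratio of MT-CO3 to MT-ND5 is given first. It was 0.980 (0.970 to 0.991) in NKX2-8, 0.883 (0.874 to 0.893) in HOXA11, 0.830 (0.819 to 0.840) in ZBTB7A, 0.757 in E2F4, 0.752 in EGR1, 0.750 in TFCP2, 0.747 in NRF1 and 0.659 (0.652 to 0.667) in RORA, against 0.797 (0.788 to 0.806) in the control library. So 2 genes of the same heavy-strand transcript differed 1.49-fold in their ratio between NKX2-8 and RORA. The ratio of MT-ND6 to MT-ND5, genes of opposite strands whose reads may not have been separated by strand in counting, was highest in NKX2-8 at 0.0430 (0.0414 to 0.0446) and lowest in RORA at 0.0278 (0.0265 to 0.0291), against 0.0370 (0.0355 to 0.0385) in the control library. MT-ND4L to MT-ND4, which share an mRNA, varied less, from 0.139 in TFCP2 to 0.152 in RORA, against 0.136 in control. Complex IV over complex I counts ran from 1.48 in RORA to 1.63 in NKX2-8, against 1.55 in control.

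**Figure D3:**
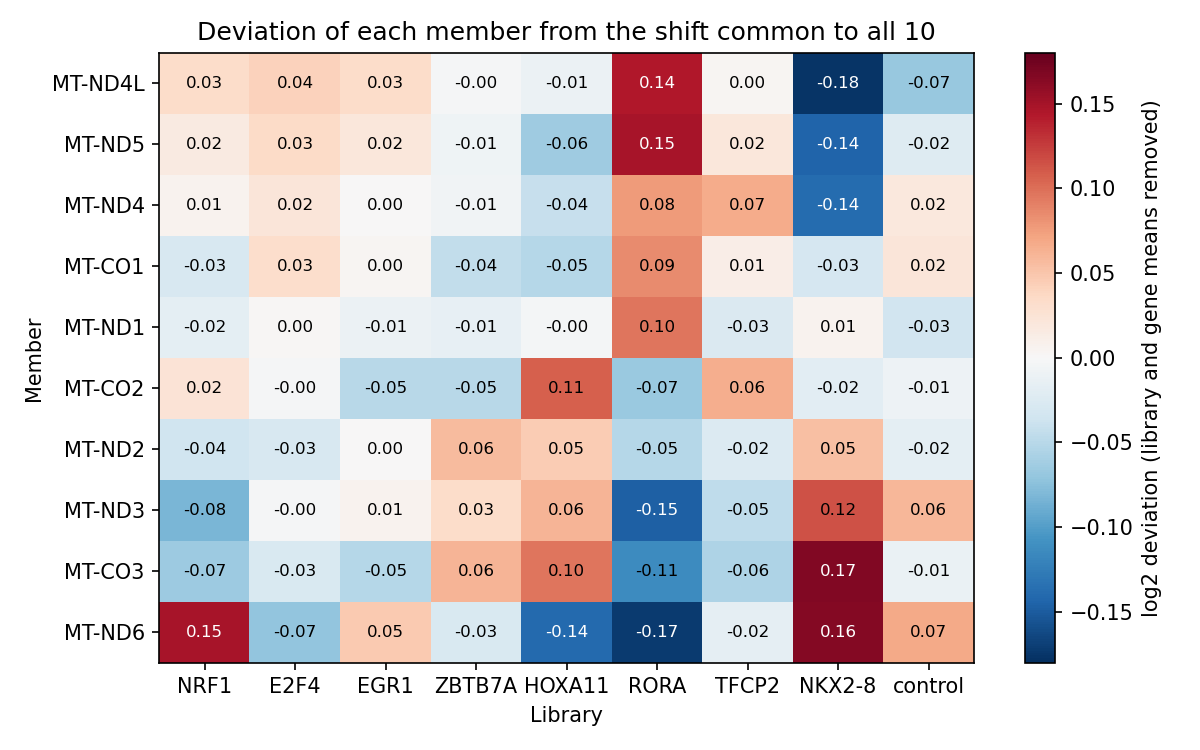
Deviation (log2) of each gene from the shift common to all 10 genes in each library, after removal of the gene's own mean. Genes are ordered by the difference between NKX2-8 and RORA. MT-ND4L and MT-ND5 are 0.14 and 0.15 in RORA and -0.18 and -0.14 in NKX2-8, while MT-CO3 and MT-ND6 are -0.11 and -0.17 in RORA and 0.17 and 0.16 in NKX2-8.

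The CLB_TF libraries were compared as a class with the control TF libraries (4 and 4 libraries, the TFs standing in for replicates). All 10 genes averaged lower in the CLB_TF libraries, with log2FC of -0.28 ± 0.15 (SE) for MT-CO3, -0.26 ± 0.10 for MT-CO2, -0.25 ± 0.11 for MT-ND1 and -0.18 ± 0.09 for MT-ND4L at the other end, but none passed the test. In edgeR's quasi-likelihood test the adjusted p was 0.411 to 0.686 over all genes tested, and 0 of 10 were called, beside 0.0400% of genes (6 of 15012). With an unadjusted p under 0.05 there were 5 of the 10, beside 10.2% of all genes, and DESeq2 and limma-voom called 0 as well. With no filter on low counts the edgeR fit called 795 of 35115 genes, and 3 members with them, MT-CO3 (adjusted p = 0.0144), MT-CO2 (0.0214) and MT-CO1 (0.0217), at log2FC of -0.29, -0.27 and -0.24. The median log2FC was -0.23 for the members, 0.0031 for all genes tested and -0.042 for the 1938 genes at a mean of 100 CPM (10th to 90th percentile -0.13 to 0.062). Of those 1938 genes, 71.6% were below 0, so the shared direction of the members was common among abundant genes. In size, all 10 members (-0.28 to -0.18) lay below the 10th percentile of those genes.

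The ranges of the classes overlapped for all 10 genes. MT-CO1 averaged 15637 ± 2048 CPM in CLB_TF libraries and 18436 ± 2399 CPM in control TF libraries (SD, n = 4 each), and MT-CO3 2709 ± 400 CPM and 3305 ± 790 CPM. For 8 of the 10 genes, NRF1 was the single CLB_TF library below the lowest control TF library. The size of the class difference depended on 2 libraries, since without NRF1 the members' median log2FC was -0.13 and without NKX2-8 it was also -0.13. Without HOXA11 it was -0.22, close to that with all libraries. In each of these 3 fits 0 of the 10 had an unadjusted p under 0.05. MT-ND6 turned to 0.019 without NKX2-8.

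**Figure D4:**
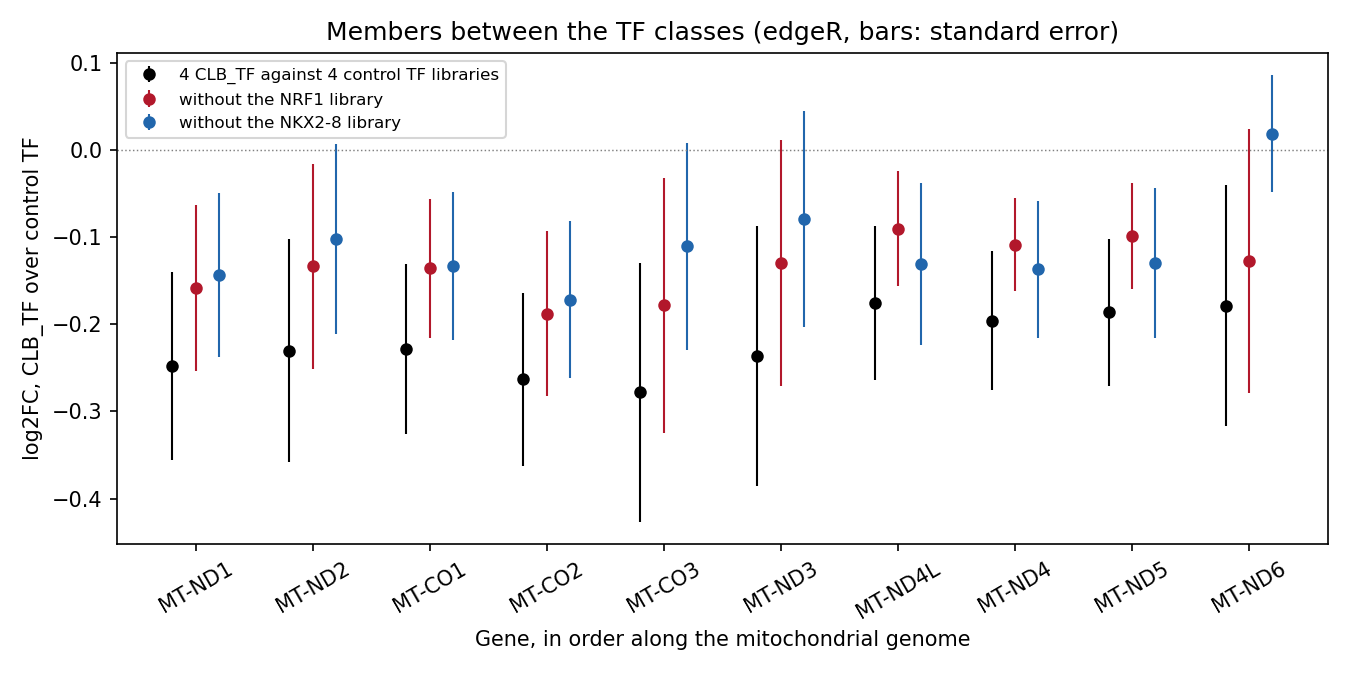
log2FC of each gene in CLB_TF over control TF libraries (points) with its standard error (bars), with all 8 TF libraries, without NRF1 and without NKX2-8. With all libraries the values lie between -0.28 and -0.18, and leaving out either library brings the median to -0.13.

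The other 3 genes of the mitochondrial genome in the table were, like the members, highest in NKX2-8 and lowest in NRF1 after TMM scaling. Elsewhere they differed in part. In RORA their summed level was 4135 CPM, against 4281 CPM in the control library, while that of the members was above control. MT-CYB had a log2FC of 0.82 in NKX2-8 and 0.53 in HOXA11, larger than any member there. MT-CYB, the cytochrome b of complex III, had 2772 CPM in NKX2-8 and 1448 CPM in NRF1, against 1575 CPM in the control library. MT-ATP6 and MT-ATP8, subunits of ATP synthase, had 3300 and 280 CPM in NKX2-8 and 1954 and 156 CPM in NRF1, against 2485 and 221 CPM in the control library. None was called between the classes (adjusted p of 0.566 to 0.781, edgeR).

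The nuclear-encoded partners varied less. The summed level of 37 nuclear subunits of complex I was 3063 CPM in NKX2-8 and 2729 CPM in NRF1, against 3179 CPM in control, and that of 13 nuclear subunits of complex IV was 1875 and 1693 CPM, against 1965 CPM. Across the 9 libraries these sums varied 1.16-fold each, while those of the mitochondrially encoded subunits varied 1.61-fold (complex I) and 1.76-fold (complex IV). In NKX2-8 the median log2FC was -0.070 for nuclear complex I and -0.069 for nuclear complex IV subunits, beside 0.51 and 0.46 for the mitochondrially encoded ones. In NRF1 the medians were -0.22 and -0.22, beside -0.31 and -0.37. The median of genes at 100 CPM or more was -0.058 in NKX2-8 and -0.19 in NRF1. For both complexes the control library had the highest nuclear sum, so every TF library lay below it. Between the classes, 0 of 35 nuclear complex I and 0 of 12 nuclear complex IV genes at 1 CPM or more were called. Among those at a mean of at least 5 CPM, the largest class log2FC was that of NDUFS8, an iron-sulfur subunit, at -0.19 ± 0.06 (adjusted p = 0.285, edgeR), and in NRF1 that of NDUFB4, an accessory subunit, at -0.44 (105 CPM, against 143 CPM in control). With at least 1 CPM in the higher library, NDUFA13 was the 1 gene of these lists past 2-fold in a TF library, with 19 counts in NKX2-8, against 54 in control, low counts in both libraries.

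**Figure D5:**
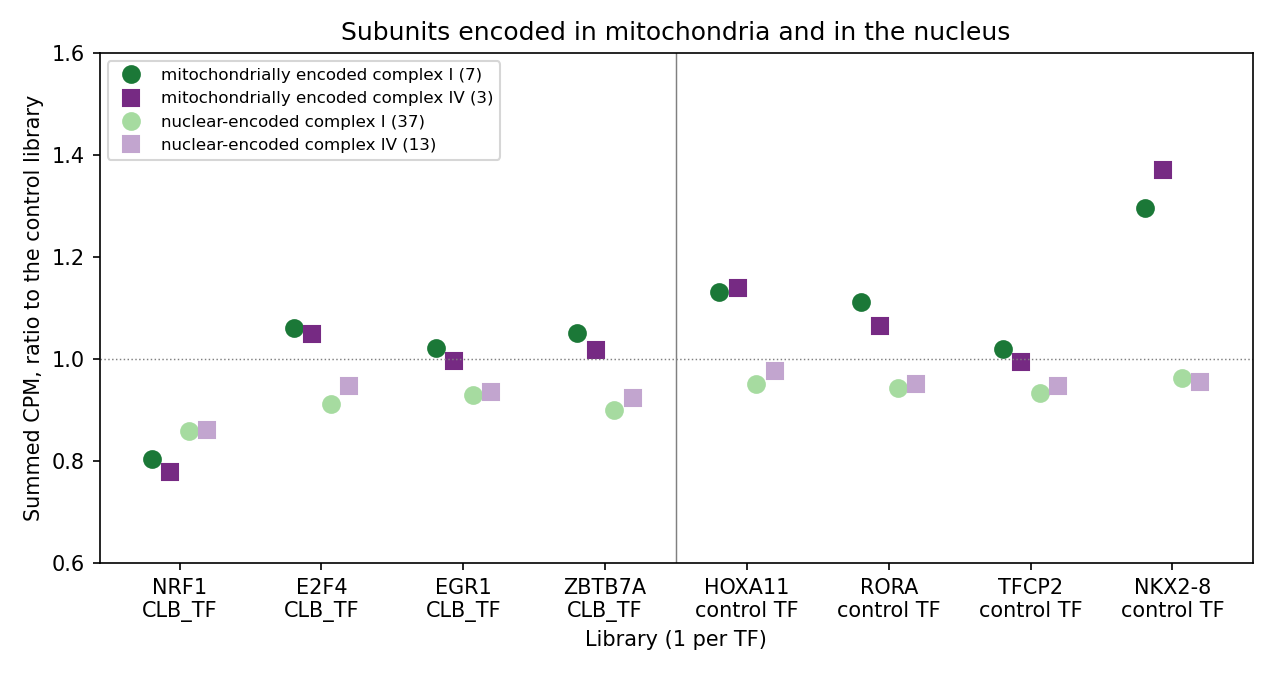
Summed CPM of mitochondrially encoded (dark) and nuclear-encoded (pale) subunits of complex I (circles) and complex IV (squares) in each TF library, as a ratio to the control library, with the number of genes in brackets. In NKX2-8 the mitochondrially encoded sums stand above the control level (dotted line at 1) while the nuclear ones do not, and in NRF1 all 4 sums lie below it. The nuclear sums lie below the control level in every TF library.

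The machinery that makes and matures mitochondrial RNA was given from lists of 20 genes (transcription and replication of mitochondrial DNA) and 25 genes (processing and stability of its RNA), and 0 genes of either were called between the classes or at 2-fold in any TF library. In NKX2-8 their median log2FC was 0.060 and 0.0030. TFAM, which packages mitochondrial DNA and starts its transcription, had 103 CPM in NKX2-8 and 80.1 CPM in NRF1, against 97.5 CPM in control, and POLRMT had 155 and 143 CPM, against 147 CPM. Among genes at a mean of at least 5 CPM, the largest differences of the first list in NRF1 were MTERF3 (log2FC -0.55), TFB1M, an rRNA methyltransferase (-0.50), and TWNK, the mitochondrial DNA helicase (0.43). Those of the second were SUPV3L1, the RNA helicase of the mitochondrial degradosome (0.55), TRMT10C, a subunit of mitochondrial RNase P (-0.43), and MRM1 (0.42). The low level of TFB1M was not particular to NRF1. It was below the control library in every TF library, with log2FC of -0.51 (ZBTB7A) to -0.29 (NKX2-8). MTPAP, the mitochondrial poly(A) polymerase, had a class log2FC of -0.17 ± 0.08 (adjusted p = 0.522, edgeR).

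Assembly factors (18 for complex I, of which 18 were at 1 CPM or more, and 22 for complex IV, of which 21 were) had 0 genes called between the classes and 0 at 2-fold. Their median log2FC in NKX2-8 was 0.043 and -0.076, and in NRF1 -0.14 and -0.19. Of 20 genes of the mitochondrial and integrated stress response, 0 were called between the classes, and 1, GDF15, a secreted stress cytokine, passed 2-fold in 4 libraries. GDF15 had 16.0 CPM in EGR1, 8.47 in TFCP2, 6.57 in NKX2-8 and 6.16 in RORA, and 3.09 CPM in NRF1, where the members were lowest, against 2.94 CPM in control. Of 8 regulators of mitochondrial biogenesis, only the inserted NRF1 passed 2-fold.

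The summed level of the 6 leukocyte markers that averaged under 1 CPM was 1.39 CPM in NKX2-8, against 0.362 to 1.07 CPM in the other libraries, so it was highest in the library where the members were highest, while PTPRC and CD68 were at 0 counts there. The summed level of 7 muscle and heart markers was 4.78 CPM in NKX2-8, within the 2.52 to 8.24 CPM of the other libraries, and that of 7 fibroblast markers was 33.6 CPM, within 27.2 to 43.6 CPM. The leukocyte sums rest on few counts and lie near the floor. The part of these small differences in the result was not tested.

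Among 9882 nuclear genes at a mean of at least 10 CPM, the 5 whose log2 CPM was most like the mean of the members over the 9 libraries had Pearson's r of 0.955 to 0.983. The highest was PLPBP, with 59.2 CPM in NKX2-8 and 42.0 in NRF1, against 49.9 in control. TXNDC9, DNTTIP2 and COPS3 were among the 5, with 25.1, 107 and 237 CPM in NKX2-8 and 13.3, 80.6 and 171 CPM in NRF1, against 16.3, 91.1 and 195 CPM in control. They were picked as the highest of many genes over 9 points, so the size of r is a description.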

How the data were processed

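RNA-seq libraries of 293T cells (9, 1 per condition) were made with a directional kit; poly(A) selection or rRNA depletion, and use of strand in counting, are not given in the sources used here, which for RNA extraction differ. The labels name TRIzol and the methods a miRNeasy kit. Reads were checked (FastQC 0.11.2), mapped (STAR 2.6.0c, GRCh37) and, where mapped uniquely, counted (featureCounts 1.6.3) by the authors. The deposited table holds raw counts of 57163 genes, with no normalization.

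Counts were scaled by TMM (edgeR 4.0.16, R 4.3.3). TF libraries were compared with the control library by log2FC at a prior count of 2, a call at 2-fold and 1 CPM in the higher library, and exact conditional binomial intervals at 95%. Classes were compared with the quasi-likelihood test of edgeR on genes kept by filterByExpr, with Benjamini-Hochberg adjustment at 0.05, tested on simulated data. With no labelled cultures behind the libraries, p-values measure the spread between TFs. Deviations are log2 CPM minus library and gene means. Sequences came from GRCh37, and nuclear copies from blastn against its nuclear chromosomes. Genes named are all members, the other mitochondrial genes, up to 3 per list by class and NRF1 log2FC at 5 CPM (not all are given), and the 5 most alike, not all of which are reported here. NDUFA13, GDF15, TFAM, POLRMT and MTPAP were added after their values were seen where outside that rule. Alternatives were library totals, DESeq2 1.42.0 (size factors and Wald test), limma-voom (limma 3.58.1), TMM without mitochondrial genes, other folds, filters, prior counts and references, and leaving out each TF library. The members and lists were chosen with earlier results of these data known. The summed level of all 7 leukocyte markers is not reported here.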

Additional observations from a re-analysis of the deposited data

Results flagged for a closer look

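In the CLB_TF group of 4 libraries, the NRF1 library lay far below the other 3 in 6 of the 10 genes, by the gap to its nearest neighbour as a share of the group's range on the log scale. Its levels were 1404 CPM for MT-ND1, 351 CPM for MT-ND3, 5472 CPM for MT-ND4, 809 CPM for MT-ND4L, 2869 CPM for MT-ND5 and 12619 CPM for MT-CO1. In all, 20 groups of 4 were examined (10 genes in both classes), and chance flags about 1 in 20 groups. The 10 genes move together, so these 6 are not separate events. No control TF library was set apart in this way.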

How the results depend on the processing

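The call of 0 of 10 members at 2-fold in every TF library held under all alternatives run, except that a 1.5-fold rule gave 1 in NKX2-8. The log2 ratio of the summed members to control was, with library totals, -0.19 in NRF1, 0.10 in E2F4, 0.058 in EGR1, 0.11 in ZBTB7A, 0.21 in HOXA11, 0.024 in TFCP2 and 0.45 in NKX2-8. With DESeq2 size factors it was 0.088 in E2F4, 0.019 in EGR1, 0.067 in ZBTB7A and 0.43 in NKX2-8. Against the mean of the control TF libraries, which includes NKX2-8 except for NKX2-8 itself, it was -0.53 in NRF1 and 0.32 in NKX2-8 and turned round to -0.12 in E2F4, -0.18 in EGR1, -0.15 in ZBTB7A, -0.0095 in HOXA11, -0.10 in RORA and -0.24 in TFCP2. As the median of the members' log2FC it was -0.32 in NRF1, 0.067 in E2F4, 0.0019 in EGR1, 0.065 in ZBTB7A, 0.22 in HOXA11, 0.076 in RORA, -0.0058 in TFCP2 (turned round) and 0.49 in NKX2-8. Between the classes, 0 members were called under all alternatives except with no filter on low counts, which called 3 (MT-CO1, MT-CO2 and MT-CO3) and 795 genes in all. The other fits called 1 gene with library totals, 142 with the DESeq2 Wald test and 0 with limma-voom, and 0 to 60 genes when 1 library was left out (1 without NRF1, 21 without E2F4, 60 without EGR1, 16 without ZBTB7A and 0 without any 1 control TF). MT-ND6 had a class log2FC of -0.26 to 0.019 over the libraries left out, and turned round only without NKX2-8, where the cause was not tested. Counting error is small for the members, so the lack of replicate libraries, not depth, limits these comparisons. No paired analysis was possible because each condition had 1 library.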
